A study of Mus musculus with 2 samples.

Results

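The 8 miRNA genes described here are those whose mature products are best known from 2 organs of endodermal origin, the liver (Mir122, Mir192, Mir194-1 and Mir194-2) and the pancreas (Mir375, Mir216a, Mir216b and Mir217). They were chosen by gene symbol and matched through their Ensembl identifiers in GENCODE release M21, and all 8 were among the 1973 miRNA genes counted. The tissue was neither of these organs. MicroRNA sequencing was run on neural tube, the embryonic precursor of brain and spinal cord, dissected from healthy B6NCrl mouse embryos at 12.5 days of development, with males and females pooled. The labels give 1 group of 2 biological replicates, a pool of 120 embryos (replicate 1) and a pool of 88 embryos (replicate 2), with no second tissue, age, genotype or treatment. Values are therefore levels within neural tube and differences between the 2 pools, and no exact permutation test over 2 libraries can go below p = 0.5.

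A miRNA is cut from a hairpin in a primary transcript, first in the nucleus and then in the cytoplasm, and 1 strand of the resulting short duplex guides an Argonaute protein to messenger RNAs. Target choice rests mainly on the seed, bases 2 to 8 of the mature strand. Mir122 supplies the most abundant miRNA of hepatocytes. Mir192 and Mir194 are expressed together in liver, intestine and kidney. Mir375 marks pancreatic islet cells, where it restrains insulin release, and is also made by other neuroendocrine cells, and Mir216a, Mir216b and Mir217 form a cluster that is abundant in the exocrine pancreas. In a bulk tissue, a low level in many cells and a high level in a few cells cannot be told apart.

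Among the RefSeq entries used here (GRCm38.p6), mature strands were found for 7 of the 8 genes. The entries used did not include Mir122, so whether RefSeq lists a mature strand for it was not examined. The 5p strands are given because they show which of these genes share a 5p seed and which share a whole 5p strand. They are written 5′ to 3′ with the seed in capitals, and that of Mir215, the hairpin beside Mir194-1, is added.
miR-192-5p: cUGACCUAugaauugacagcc
miR-215-5p: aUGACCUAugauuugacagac
miR-194-5p: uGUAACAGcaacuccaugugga
miR-216a-5p: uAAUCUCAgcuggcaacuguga
miR-216b-5p: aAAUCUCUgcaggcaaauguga
miR-217-5p: uACUGCAUcaggaacugacugga
Counted from the 5′ end, miR-192-5p and miR-215-5p were identical at 18 of 21 positions (C1A, A12U and C20A from the first to the second), with the whole seed shared. The strands miR-216a-5p and miR-216b-5p were identical at 18 of 22 positions (U1A, A8U, U11A and C17A). Of these, A8U lies in the seed, so the 2 neighbours have different seeds. No other mature strand among the RefSeq entries used had the seed of miR-216a-5p, miR-216b-5p or miR-217-5p.

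The 2 Mir194 hairpins make the same 5p strand, which is in capitals in both sequences below. They are printed because reads of this strand match 2 loci.
Mir194-1 hairpin: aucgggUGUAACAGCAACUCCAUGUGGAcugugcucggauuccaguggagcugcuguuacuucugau
Mir194-2 hairpin: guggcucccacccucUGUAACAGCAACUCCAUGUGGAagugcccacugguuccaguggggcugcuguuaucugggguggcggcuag
The longest stretch these hairpins have in common is 22 bases, exactly the mature strand. Their 3p strands were identical at 18 of 22 positions (A8G, C19U, U20C and C22G from miR-194-1-3p to miR-194-2-3p) and could be told apart. None of the other 6 hairpins shared a window of 20 bases with another counted miRNA hairpin. The deposited files count multimapping reads in a row of their own, apart from the gene rows, so the gene values of Mir194-1 and Mir194-2 hold reads that match 1 locus. The miR-194-5p strand itself matches both loci.

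For Mir375 the RefSeq entries used list only miR-375-5p, shown in capitals within the hairpin. A strand of the other arm was not listed, so the capitals do not show which arm gives the islet miRNA described above. The hairpin is printed because it had the highest GC content, 67.2%, among the hairpins of these 7 genes and Mir215. The 1005 hairpins among the RefSeq entries used had a median of 51.7%, and 5.37% of them had as much as Mir375 or more.
Mir375 hairpin: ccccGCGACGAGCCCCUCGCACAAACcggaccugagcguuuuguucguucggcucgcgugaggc
Gene counts hold both arms of a hairpin, so the counts do not show which strand the reads came from.

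Replicate 1 had 4802411 reads on the own strand of miRNA genes and replicate 2 had 4422853, so 1 read equals 0.208 and 0.226 reads per 1000000 gene reads (CPM). Detection was defined as a minimum of 10 reads in each of the libraries. By that rule 7 of the 8 genes were detected, all but Mir194-1, against 18.8% of all 1973 genes. Summed, the 8 genes made up a small share of gene reads. They held 4332 reads in replicate 1, or 0.0902% of gene reads (exact binomial 95% interval 0.0875 to 0.0929), and 2913 reads in replicate 2, or 0.0659% (0.0635 to 0.0683). The mean was 0.0780% ± 0.0172 (SD, n = 2). Intervals here and below cover counting error only and treat each read as independent. Reads amplified by PCR are not independent molecules, so the intervals may be too narrow even for counting error. The pancreas genes held 82.8% ± 2.33 of the reads of the 8 genes and the liver genes 17.2% ± 2.33. Reads of the mature strand that both Mir194 hairpins make match both loci and are missing from these values. The liver share and the total of the 8 genes may therefore be too low, and the shares of the pancreas genes too high. Mir375 and Mir217 alone held 66.3% ± 5.59.

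**Figure D1:**
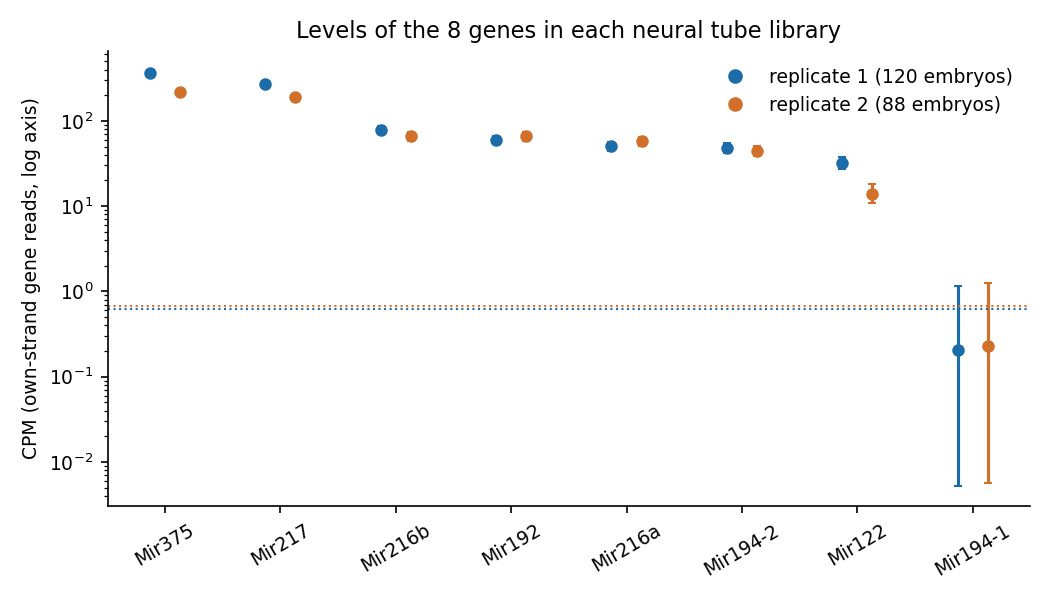
CPM of each of the 8 genes on a log axis, in replicate 1 (blue, 120 embryos) and replicate 2 (orange, 88 embryos), with exact Poisson 95% intervals as bars; dotted lines mark the level of 3 reads, 0.625 and 0.678 CPM. Mir375 and Mir217 sit highest in both libraries, 5 genes lie between 14.0 and 77.7 CPM, and Mir194-1 lies under the dotted lines.

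Among the pancreas genes, Mir375 had the highest level. This gene lies on chromosome 1 at 74900658 to 74900721, minus strand, outside other annotated genes and 1.35 kb from the protein-coding gene Cfap65. It had 1739 reads, 362.1 CPM, in replicate 1 and 966 reads, 218.4 CPM, in replicate 2, a mean of 290.3 ± 101.6 CPM (n = 2). Replicate 1 was the higher library, and the Poisson intervals (345.3 to 379.5 and 204.9 to 232.6 CPM) did not overlap. Mir375 ranked 129 of 1973 genes in replicate 1 and 155 in replicate 2.

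The 3 other pancreas genes lie on the plus strand of chromosome 11 over 17.6 kb, in the order Mir216b (28746191 to 28746276), Mir216a (28757012 to 28757083) and Mir217 (28763728 to 28763835). Mir216a and Mir217 lie in an intron of the long non-coding RNA gene Gm12082, whereas Mir216b lies 5.36 kb outside it. Mir217 had 1304 reads, 271.5 CPM, in replicate 1 and 850 reads, 192.2 CPM, in replicate 2, a mean of 231.9 ± 56.1 CPM. Mir216b had 373 and 292 reads, 77.7 and 66.0 CPM, a mean of 71.8 ± 8.24 CPM. Mir216a had 241 and 255 reads, 50.2 and 57.7 CPM, a mean of 53.9 ± 5.28 CPM. Mir217, the last hairpin of the 3, was thus the highest of the cluster in both libraries, and Mir216a was the lowest. The Mir216c hairpin is annotated on the other strand of the Mir216b locus, where neither library had a read (0 reads against a limit of 3, or 0.625 CPM in replicate 1 and 0.678 CPM in replicate 2).

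Levels of different miRNA genes were compared without division by length, since 1 read covers a whole mature strand. Mir217 had 5.41 times the reads of Mir216a in replicate 1 (95% interval 4.71 to 6.23) and 3.33 times in replicate 2 (2.90 to 3.85). The intervals do not overlap, so within the cluster this ratio itself differed between the pools by more than the counting error these intervals cover. The ratio of Mir217 to Mir216b was 3.50 in replicate 1 and 2.91 in replicate 2, a mean of 3.20 ± 0.414 (n = 2). The ratio of Mir216b to Mir216a was 1.55 in replicate 1 (1.31 to 1.83) and 1.14 in replicate 2 (0.965 to 1.36), so counting error alone spans 1 in replicate 2. These are ratios of reads, and differences in capture between sequences during library preparation enter them unmeasured.

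**Figure D2:**
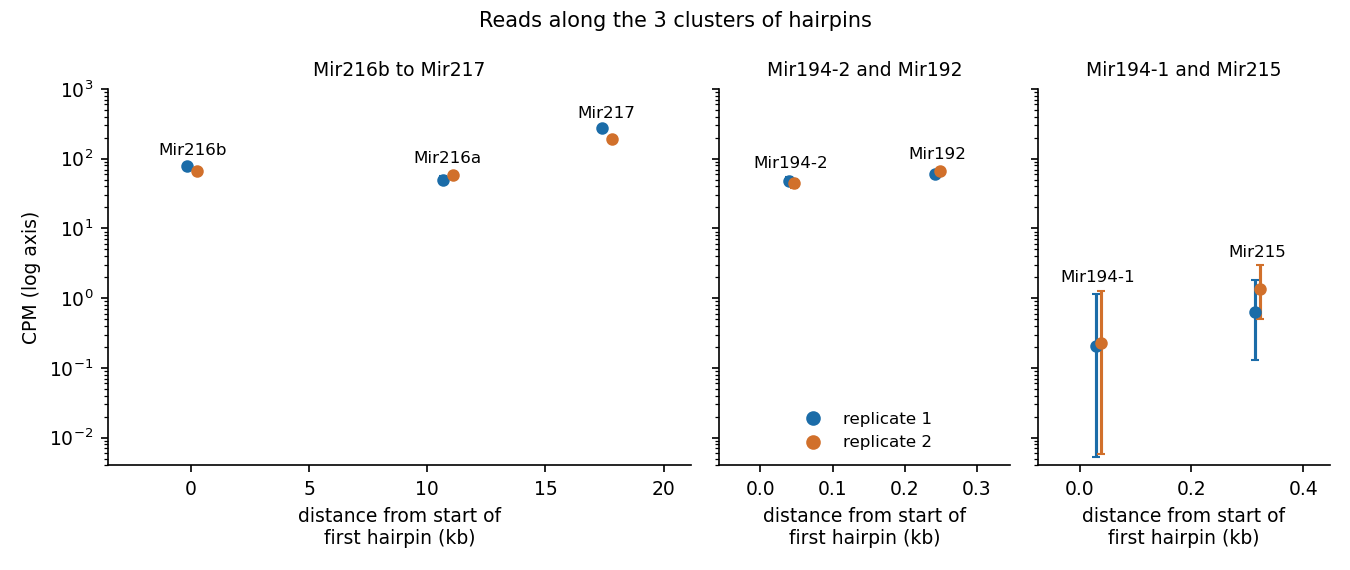
CPM on a log axis of each hairpin against its distance in kb from the start of the first hairpin of its cluster, for Mir216b to Mir217 (left), Mir194-2 and Mir192 (middle) and Mir194-1 and Mir215 (right); points are the libraries and bars exact Poisson 95% intervals. In the left panel Mir217, the most distant hairpin, is the highest at 271.5 and 192.2 CPM, and in the right panel the points of both genes stay under 2 CPM.

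Among the liver genes, Mir192 and Mir194-2 form a pair on the plus strand of chromosome 19, Mir194-2 at 6264643 to 6264728 and Mir192 at 6264844 to 6264932, with 115 bases between them and no other annotated gene over either. The nearest protein-coding gene on their strand is Atg2a, 2.31 kb from Mir194-2. Mir192 had 286 reads, 59.5 CPM, in replicate 1 and 291 reads, 65.8 CPM, in replicate 2, a mean of 62.7 ± 4.41 CPM. Mir194-2 had 233 and 196 reads, 48.5 and 44.3 CPM, a mean of 46.4 ± 2.97 CPM. Both genes were close between the pools, with coefficients of variation of 7.04% and 6.40% against 35.0% for Mir375. The ratio of Mir192 to Mir194-2 was 1.23 in replicate 1 (1.03 to 1.47) and 1.49 in replicate 2 (1.23 to 1.79), a mean of 1.36 ± 0.182, above 1 by more than its spread. Reads of the miR-194-5p strand that map to both Mir194 loci are missing from the denominator, so this ratio does not compare the 2 mature products.

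The second copy of this pair lies on chromosome 1, plus strand, with Mir194-1 at 185313319 to 185313385 and Mir215 at 185313581 to 185313692, 195 bases apart. Mir194-1 lies in an intron and Mir215 overlaps an exon of the antisense RNA gene 2010103J01Rik, and both lie within an intron of Iars2, a mitochondrial isoleucyl-tRNA synthetase gene on the opposite strand. Mir194-1 had 1 own-strand read in each library, 0.208 CPM (exact Poisson 95% interval 0.00527 to 1.16) and 0.226 CPM (0.00572 to 1.26), below the level of 3 reads. It was also the only one of the 8 genes with a read on the opposite strand, 1 read in replicate 2. Mir215, whose 5p strand has the seed of miR-192-5p, had 3 and 6 reads, 0.625 and 1.36 CPM. The Mir215 hairpin shares no window of 20 bases with another counted hairpin. Against Mir215, Mir192 had 95.3 times the reads in replicate 1 (32.3 to 465) and 48.5 times in replicate 2 (22.0 to 133.2). Against Mir194-1, Mir194-2 had 233 times the reads in replicate 1 (41.4 to 9242) and 196 times in replicate 2 (34.8 to 7781). Of the reads assigned to 1 locus of this duplicated pair, nearly all were thus on chromosome 19.

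Mir122 lies on chromosome 18 at 65248861 to 65248926, plus strand, overlapping an exon of the long non-coding RNA gene AC157910.3. It had 155 reads, 32.3 CPM (27.4 to 37.8), in replicate 1 and 62 reads, 14.0 CPM (10.8 to 18.0), in replicate 2, a mean of 23.1 ± 12.9 CPM. Its coefficient of variation of 55.8% was the highest of the 8 genes. Mir122, the source of the most abundant miRNA of hepatocytes, was the lowest of the 7 detected genes in both libraries. Mir192 had 1.84 times the reads of Mir122 in replicate 1 (1.51 to 2.26) and 4.69 times in replicate 2 (3.56 to 6.28), and Mir375 had 11.2 times (9.52 to 13.3) and 15.6 times (12.1 to 20.5).

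In order of mean CPM the genes ran Mir375, Mir217, Mir216b, Mir192, Mir216a, Mir194-2, Mir122 and Mir194-1. Both libraries gave this order, but not every step of it exceeded the error. Mir375 exceeded Mir217 by 1.33 times in replicate 1 (1.24 to 1.43) and 1.14 times in replicate 2 (1.04 to 1.25), a mean of 1.23 ± 0.139. The step from Mir216b to Mir192 (mean ratio 1.15 ± 0.213) and that from Mir216a to Mir194-2 (1.17 ± 0.189) did not exceed the spread between the libraries. Mir192 stood above Mir216a by 1.16 ± 0.0322, more than that spread, but within counting error in each library (0.996 to 1.41 and 0.961 to 1.36). Mir194-2 exceeded Mir122 by 1.50 times in replicate 1 (1.22 to 1.85) and 3.16 times in replicate 2 (2.37 to 4.28). The genes thus fell into a higher pair, 4 genes between 44.3 and 77.7 CPM, Mir122, and Mir194-1. Among the 4, the steps between neighbours were within counting error in at least 1 library, while Mir192 exceeded Mir194-2 in both. Reads of the mature strand that both Mir194 hairpins make are missing from Mir194-1 and Mir194-2. The places of these 2 genes are therefore those of assignable reads only, and where their mature products stand in the order cannot be told.

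**Figure D3:**
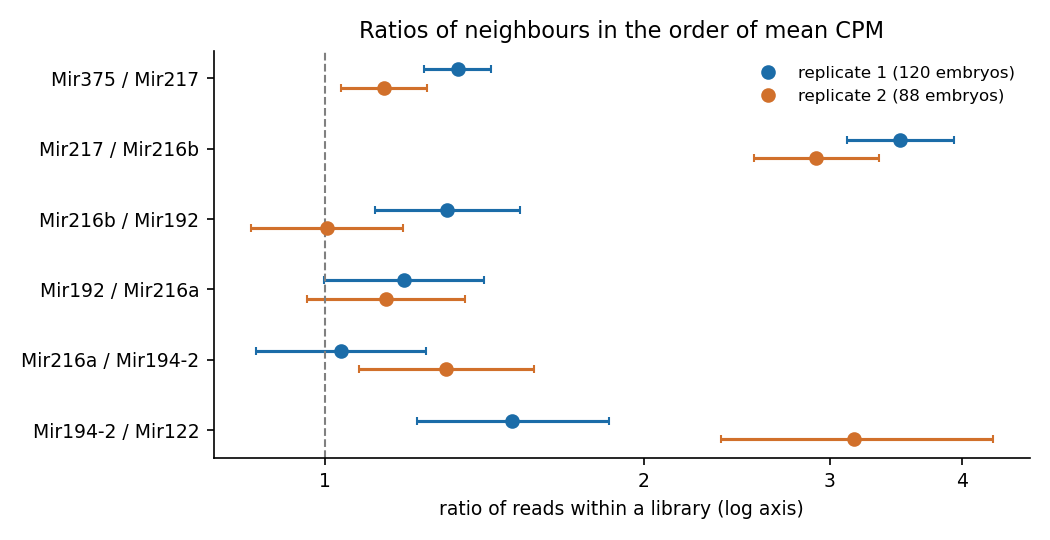
Ratio of reads between genes next to each other in the order of mean CPM, on a log axis, in replicate 1 (blue) and replicate 2 (orange), with exact 95% intervals as bars and a dashed line at 1; the step to Mir194-1, with 1 read per library, is not drawn. The intervals of Mir192 to Mir216a cross 1 in both libraries, and those of Mir194-2 to Mir122 lie far apart, around 1.50 and 3.16.

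To place these levels, the nearest detected genes in mean CPM were named for each of the 7 genes. With 2 libraries of 1 tissue, likeness of level is all that can be ranked. Mir375 lay between Mir485 (296.6 ± 58.5 CPM) and Mir9-3 (283.1 ± 21.1 CPM), a copy of the neural progenitor gene Mir9. Mir217 lay between Mir199b (231.9 ± 10.7 CPM) and Mir302d (217.9 ± 6.33 CPM), a gene of the pluripotency cluster. Mir216b lay between the erythroid gene Mir451a (72.7 ± 5.58 CPM) and Mir30b (71.1 ± 5.98 CPM). Mir192 lay between Mir145a (63.0 ± 1.98 CPM) and Mir666 (62.4 ± 3.26 CPM), and Mir216a between Mir3102 (54.0 ± 9.27 CPM) and Mir1981 (53.3 ± 0.884 CPM). Mir194-2 lay between Mir204 (46.8 ± 4.87 CPM) and Mir200a (45.9 ± 10.5 CPM), and Mir122 between Mir1955 (24.2 ± 1.96 CPM) and Mir448 (23.1 ± 0.0363 CPM). In each case the distance to the neighbour was at most 0.09 on the log2 scale. The level of an islet miRNA gene in this tissue was thus near that of the assignable reads of a Mir9 copy, a value that lacks reads mapping to several places. The value of Mir194-2 lacks such reads as well. Gene rows leave them out for every gene, and sequence that the other neighbours share with further genes was not examined.

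**Figure D4:**
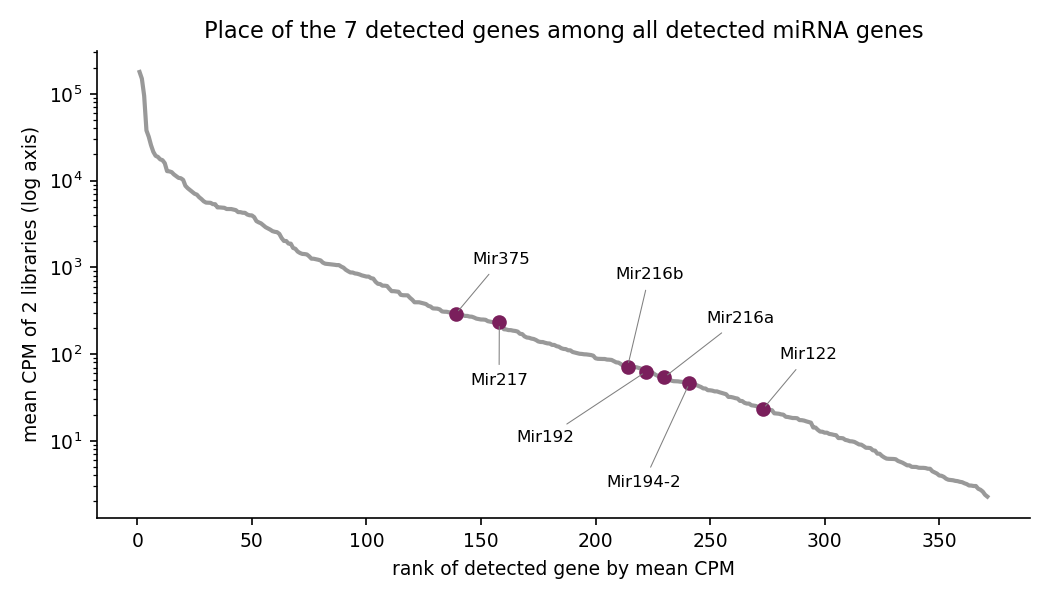
Mean CPM of the 371 detected miRNA genes on a log axis against their rank (grey line), with the 7 detected genes of liver and pancreas as points. Mir375 stands at rank 139 and Mir217 at rank 158, and the other 5 points lie from rank 214 to 273, in the lower part of the curve.

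For each gene, the reads of the 2 pools were set against each other in an exact binomial test (two-sided), with totals scaled by the trimmed mean of M-values (TMM) and p-values adjusted by Benjamini-Hochberg over the 371 detected genes. It compares 2 libraries and not conditions, and covers counting error alone. At an adjusted p under 0.05 and at least 2-fold, 1 of the 7 detected genes was called, against 2.70% of all detected genes. This was Mir122, 2.24-fold higher in replicate 1 (95% interval 1.66 to 3.06, log2 ratio 1.16, adjusted p = 8.63e-08 by this exact test). The lower end of its interval lies under 2-fold. Of the 10 detected genes called at 2-fold, 9 were higher in replicate 1, Mir122 included, and 1 was lower. For comparison, 135 detected genes had a mean CPM from that of Mir122 (23.15) to that of Mir375 (290.3), the 7 genes included. Of these 135, 2.22% were as far apart as Mir122 or farther, Mir122 itself among them.

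Without a fold minimum 3 of the 7 genes passed, all higher in replicate 1, against 26.1% of detected genes that passed as higher there and 27.0% that passed as lower. The other 2 were Mir375, 1.61-fold higher (1.49 to 1.75, adjusted p = 5.22e-33 by the exact test), and Mir217, 1.38-fold higher (1.26 to 1.50, adjusted p = 1.41e-12 by the exact test). For Mir375 8.15% and for Mir217 23.0% of the 135 genes between Mir122 and Mir375 in mean CPM were as far apart or farther. The remaining 4 did not pass, with ratios of replicate 1 to replicate 2 of 1.14 for Mir216b, 1.07 for Mir194-2, 0.881 for Mir192 and 0.847 for Mir216a. The median log2 ratio of the 7 genes was 0.20, and that of all 371 was 0.00. The median size of the log2 ratio, whatever its sign, was 0.24 for the 7 genes as for all 371. The summed reads of the 4 pancreas genes were 1.39-fold higher in replicate 1 (1.32 to 1.46), while those of the chromosome 19 pair had a ratio of 0.955 (0.843 to 1.08).

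**Figure D5:**
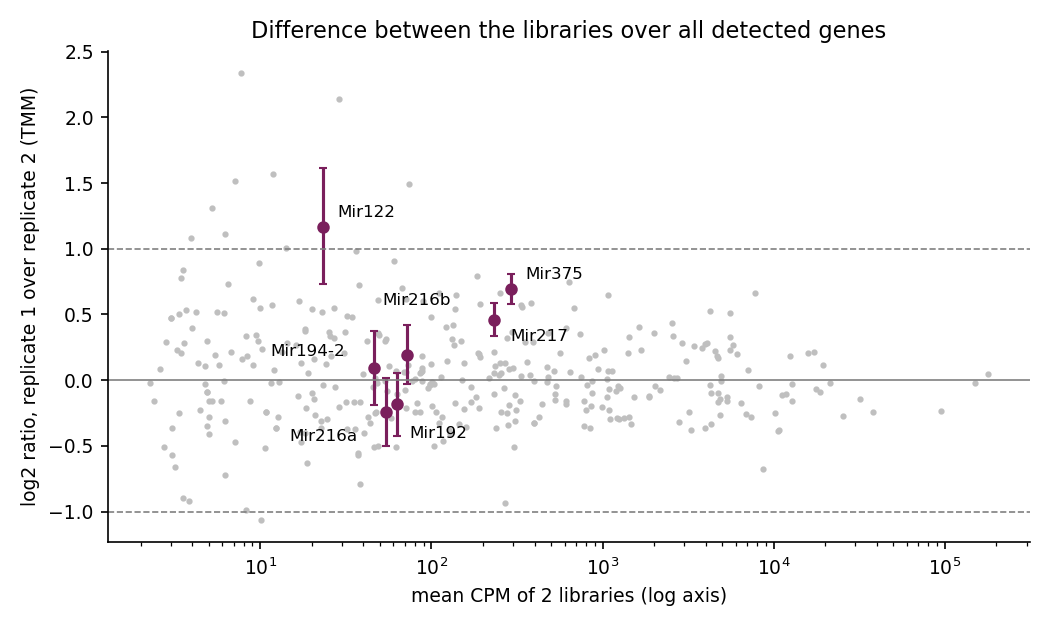
Log2 ratio of replicate 1 to replicate 2 after TMM scaling against mean CPM on a log axis, for the 371 detected genes (grey) and the 7 detected genes of liver and pancreas (purple, with exact 95% intervals as bars); dashed lines mark 2-fold. Mir122, at 1.16, is the one purple point beyond a dashed line, followed by Mir375 at 0.69 and Mir217 at 0.46.

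Other miRNA genes known from liver, gut and pancreas were measured as a list of 12 entries, of which 11 matched a counted symbol and 8 were detected. None of these 8 was called at 2-fold, while 3 passed as higher in replicate 1 and 2 as lower without a fold minimum, and their median log2 ratio was 0.16. Mir483, which lies in an Igf2 intron and is abundant in fetal liver, had 1332 CPM in replicate 1 and 825.5 CPM in replicate 2, a 1.57-fold difference. Mir101b had 1016 and 1155 CPM. Mir148a, abundant in hepatocytes and in acinar cells, had 248.2 and 224.1 CPM, near the level of Mir217. The Mir7 genes, abundant in islets and also in neurons, had 253.6 and 213.0 CPM (Mir7-1), 166.6 and 131.6 CPM (Mir7-2) and 87.5 and 120.7 CPM (Mir7b). Gene rows leave out reads that map to several places, and sequence shared between the Mir7 genes was not examined. Their values are therefore those of assignable reads only, not levels of the mature products. Mir33, in the sterol regulator gene Srebf2, had 78.9 and 86.8 CPM, and Mir31 33.3 and 28.0 CPM. The other 3 entries were not detected. Mir802 had 1 and 8 reads, Mir184 10 and 4, and Mir215 3 and 6.

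Markers of other cell types were summed in the same way. The neural list held 33.8% of gene reads in replicate 1 and 32.6% in replicate 2. Nearly all of this came from Mir10a (178300 ± 7283 CPM) and Mir10b (149300 ± 1538 CPM), so the share is in effect that of these 2 genes. Of its 11 matched genes, 9 were detected. Mir137 and Mir153 had 2809 ± 379.0 and 807.1 ± 1.17 CPM. Mir124a-2 had 9.71 ± 1.58 CPM and Mir9-2 3.95 ± 2.07 CPM, while Mir124a-1 and Mir124a-3 were not detected. The Mir124a and Mir9 copies lack reads that map to several places. The endothelial gene Mir126a held 1.93% ± 0.145, the mesenchyme list 1.61% ± 0.0820 and the sensory list 2.26% ± 0.499. Nearer to the 0.0780% of the 8 genes were the epithelial list (0.222% ± 0.00422), the muscle list (0.0652% ± 0.0245), the leukocyte list (0.0326% ± 0.00329) and the erythroid list (0.0107% ± 0.000712). With reads of the miR-194-5p strand missing from the liver genes, the erythroid list had 0.796 reads per read of the 4 liver genes in replicate 1 and 0.818 in replicate 2. Its 3 genes, Mir451a (72.7 ± 5.58 CPM), Mir144 (17.3 ± 3.62 CPM) and Mir486 (16.8 ± 5.16 CPM), were all detected. Between the pools, the ratio of replicate 1 to replicate 2 was 1.07 for the erythroid list (0.942 to 1.22), 1.12 for the leukocyte list (1.04 to 1.21), 0.948 for the epithelial list (0.922 to 0.974), 1.68 for the muscle list (1.59 to 1.77) and 0.711 for the sensory list (0.705 to 0.717), beside 2.24 for Mir122. Some of these sums hide members that went opposite ways. In the epithelial list 3 genes passed as higher in replicate 1 without a fold minimum and 2 as lower. In the erythroid list Mir486 passed as higher (ratio 1.515), while Mir144 had a ratio of 0.723 and did not pass. Of the muscle list, 2 of 5 matched genes were detected, with Mir206 at 811.1 and 469.8 CPM, and Mir133a-1 and Mir133a-2 had 0 assignable reads. Whether cells of these types have a part in the difference of Mir122, Mir375 or Mir217 was not tested.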

How the data were processed

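Small RNA libraries (size range under 30, per the labels) were made from total RNA of neural tube at 12.5 days. The files deposited by the authors hold raw read counts of miRNA genes, for both strands together and for either strand, 1 file per library. They derive from that library's alignment to mm10 and from annotation M4, per the description files deposited with them. The aligner is not given in the sources used here, nor are the counting tool and any trimming.

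From these counts the strand with more reads in all was read as own strand, rows that name no gene were left out, and CPM was computed over all own-strand gene reads. For each own-strand gene read, 0.718 (replicate 1) and 0.610 (replicate 2) reads mapped to several places. Of 1973 identifiers, 1894 matched GENCODE M21 (GRCm38). With no second group, edgeR's quasi-likelihood test could not be applied. The libraries were compared by an exact binomial test on totals scaled by edgeR 4.0.16 TMM over genes with at least 10 reads in both, at 0.05, with and without a 2-fold minimum. DESeq2 1.42.0 size factors were an alternative. Computations used R 4.3.3, Python 3.11.15, scipy 1.17.1, pandas 2.3.3 and matplotlib 3.10.9. The test was checked on simulated counts.

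Named genes are the 8 genes, the entries of the liver, gut and pancreas list, up to 3 entries of each marker list by mean CPM, and the nearest detected genes in mean CPM. Mir133a-1, Mir133a-2 and the other genes named beside these were added after their values were seen, as were the ratios to Mir215 and of Mir375 to Mir122. The 8 genes and all lists were chosen with earlier results of these data known. The labels call the libraries biological replicates, and SD and n refer to these 2 pools.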

Additional observations from a re-analysis of the deposited data

How the results depend on the processing

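Depth limits Mir194-1 most, with 1 read in each library. The share of gene reads held by the 8 genes was 0.0780%. It became 0.0467% when multimapping reads joined the denominator and 0.116% without Mir10a and Mir10b there, alternatives that scale every gene of a library alike. With TMM-scaled totals and with the both-strand column it moved by less than 1 SD, and the libraries alone gave 0.0659% and 0.0902%. With both strands counted, Mir194-1 had 1 more read, and the ratios to it fell, to 215.8 for Mir192 and 165.5 for Mir194-2. Genes at least 2-fold apart between the libraries numbered 10, and 2 at a minimum of 100 reads in both, where 0 of the 8 genes was called, since Mir122, with 62 reads in replicate 2, was no longer tested. Under DESeq2 size factors, library totals, a minimum of 1 read in either library and the both-strand column, Mir122 was called at 2-fold each time. Mir375 and Mir217 passed without a fold minimum in every alternative run. No log2 ratio between the libraries changed sign. Among all genes the balance of those past the test, 97 higher and 100 lower in replicate 1, moved to 111 and 82 with library totals, to 102 and 80 at 100 reads and, the other way, to 83 and 103 at a minimum of 1 read in either library. No paired analysis was possible because there is 1 group.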
